A study of Mus musculus with 9 samples.

Results

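The genes of fatty acid synthesis and fatty acid oxidation were measured in sorted cells of the adult mouse brain. They form 2 lists: 18 genes that build, desaturate and elongate fatty acids (Acaca to Elovl7), and 25 that activate, carry and oxidise them or control their oxidation (Acsl1 to Ppard). The 43 genes were taken by gene name. All 43 passed the filter on dim probes (well above background on 3 or more of the 9 arrays), so all are among the 24897 genes tested, and for 40 of them that held on all 9 arrays. The exceptions were Elovl5 (8 arrays), Echs1 (6 arrays) and Decr1 (5 arrays).

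The study's 3 groups of 3 one-colour Agilent arrays were compared, from untreated mice aged 6 to 8 weeks. SVZ Sox2-GFP cells came from the subventricular zone (SVZ), a niche of neural stem cells beside the lateral ventricle, in mice that make green fluorescent protein under the Sox2 promoter. Hippocampus Sox2-GFP cells came from the hippocampus of that line, and hippocampus DCX-DsRed cells from the hippocampus of mice that make a red fluorescent protein under the Dcx promoter. Sox2 is a transcription factor of neural stem cells and Dcx a microtubule protein of newborn neurons. An experiment pooled 10 dissections, and 1000 sorted cells gave the RNA that was amplified. A reporter of this kind marks whichever cells make the fluorescent protein. No label states that replicates A, B and C were separate pools, so p-values measure the spread between these samples only, which may be technical.

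Of the reporters' own genes, Sox2 went against the sort. For hippocampus Sox2-GFP minus hippocampus DCX-DsRed it differed by -1.27 on the log2 scale (adjusted p = 0.333 by limma). Sox2 was lower on all 3 hippocampus Sox2-GFP arrays. Dcx had the sign of the sort, at -1.01, but did not pass the test (adjusted p = 0.779 by limma). Of 7 immature neuron genes tested, Dcx among them, 6 averaged lower and 1 fell, against 13344 and 356 of all 24897 genes. In SVZ Sox2-GFP minus hippocampus DCX-DsRed both reporter genes had positive differences, and neither passed. There 5 of the 7 immature neuron genes averaged higher, against 48.7% of all genes, and none passed by limma. The mean level of the 7 was -0.75 to 1.80 on SVZ Sox2-GFP arrays and -0.49 to 0.90 on hippocampus DCX-DsRed arrays. On hippocampus Sox2-GFP arrays it was -2.50 to -0.40. Markers of other cell types did differ. The mean log2 level of 8 myelinating oligodendrocyte genes lay between 0.43 and 2.35 on SVZ Sox2-GFP arrays, between -4.21 and 0.91 on hippocampus Sox2-GFP arrays and between 4.66 and 5.04 on hippocampus DCX-DsRed arrays, where all 8 were well above background. The mean of 7 choroid plexus genes lay between -3.39 and -2.65, between 0.58 and 2.77, and between -4.04 and -3.32 in the same order of groups. One array, hippocampus Sox2-GFP replicate C, was less like the rest of its group (r over all genes was 0.816 to A and 0.783 to B, while A and B reached 0.919), and the value without it stands beside several differences that it moved. The arrays lay on 3 slides with their own scan times, and hippocampus Sox2-GFP C was the only array of its group that shared a slide with another group.

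Fatty acid synthesis starts in the cytosol, where citrate is cleaved to acetyl-CoA, acetyl-CoA is carboxylated to malonyl-CoA, and fatty acid synthase joins these units to palmitate. Elongases and desaturases of the endoplasmic reticulum then lengthen the chain and insert double bonds, and the brain uses the products for membranes, docosahexaenoic acid and myelin. Oxidation runs the other way: acyl-CoA synthetases activate the chain, carnitine carries it into mitochondria, and a cycle of dehydrogenases, hydratases and thiolases shortens it while the electron transfer flavoprotein passes electrons to the respiratory chain. In work on mice, neural stem cells of the adult brain have been described as using both synthesis and oxidation.

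Levels below are log2 signals relative to the 75th percentile of the array, so a level of 0 equals that percentile and each unit of difference doubles the signal. The level of one probe is not comparable with that of another. Differences are given with their standard error (SE) from limma, and a gene was called changed at a Benjamini-Hochberg adjusted p under 0.05 over all 24897 genes. In bulk samples, fewer cells of a type and less RNA per cell cannot be told apart.

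In hippocampus Sox2-GFP cells, 2 oxidation genes rose and 1 synthesis gene fell against hippocampus DCX-DsRed cells. Etfa rose 15.7-fold and Acaa2 9.86-fold, and Scd2 fell to a level 3.64-fold lower. These 3 of 43 genes are 6.98%, against 3.19% of all genes tested, and 13 of 43 had an unadjusted p under 0.05, against 4211 of 24897. In SVZ Sox2-GFP cells, against the same hippocampus DCX-DsRed arrays, Elovl2 rose 3.20-fold, Etfa rose 3.63-fold and Acsl1 fell to a level 52.2-fold lower, again 3 of 43, against 1.52% of all genes, and 9 of 43 had an unadjusted p under 0.05, against 3409 of 24897. Between SVZ Sox2-GFP and hippocampus Sox2-GFP cells none of the 43 passed the threshold by limma, against 0.402% of all genes, while 5 had an unadjusted p under 0.05, against 2688 of 24897. The first 2 comparisons share the 3 hippocampus DCX-DsRed arrays.

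**Figure D1:**
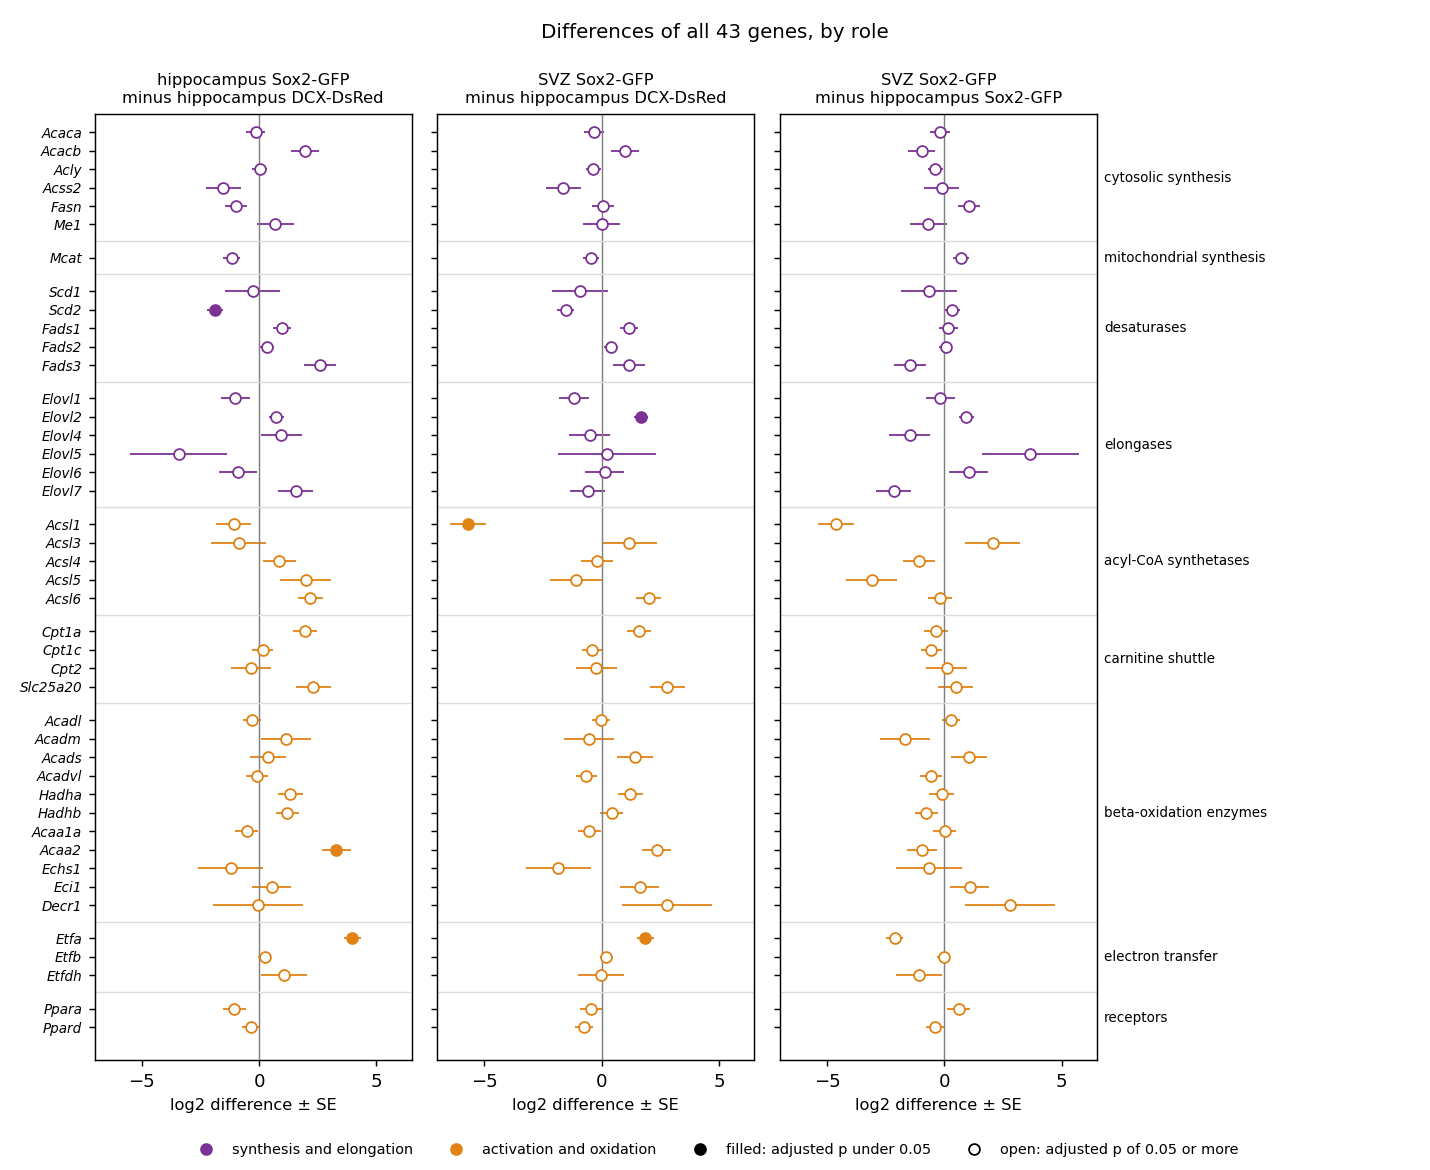
Log2 difference ± SE of each of the 43 genes in the 3 comparisons, grouped by role (points, with n = 3 arrays a group). Filled points mark an adjusted p under 0.05: Scd2, Acaa2 and Etfa in the left panel, Elovl2, Acsl1 and Etfa in the middle panel and none in the right panel.

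In the hippocampus the oxidation list had the higher median, while few genes of either list passed the test. The median difference of hippocampus Sox2-GFP minus hippocampus DCX-DsRed was 0.37 over the 25 activation and oxidation genes and -0.06 over the 18 synthesis and elongation genes, beside -0.08 over all genes tested. Of the oxidation genes 15 of 25 had a positive difference, as did 9 of 18 synthesis genes and 46.4% of all genes. Without hippocampus Sox2-GFP replicate C the oxidation median was 0.77, with 17 of 25 positive, and the synthesis median was -0.12. With slide as a fixed block, a fit in which the hippocampus Sox2-GFP difference rests on replicate C, the medians were 0.44 for oxidation and 0.41 for synthesis, so the sign of the synthesis median and the gap between the lists depended on how the slides were treated. On slide 3 alone they were 0.47 and 0.37.

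Per array, each gene was also set against its own mean over the 9 arrays. The median deviation of the oxidation genes was 0.44, -0.05 and 0.99 on the hippocampus Sox2-GFP arrays A, B and C, against -0.51, -0.22 and -0.24 on the hippocampus DCX-DsRed arrays. These groups did not overlap, but replicate B lay close to the zero line. The SVZ Sox2-GFP arrays, at -0.01, -0.04 and 0.19, overlapped with hippocampus Sox2-GFP and lay above hippocampus DCX-DsRed by this measure. Other measures did not separate SVZ Sox2-GFP from hippocampus DCX-DsRed. The mean level of the 25 genes overlapped, at -0.66 to -0.12 and -0.87 to -0.57, and their median difference was -0.015. For the synthesis genes the medians were 0.14, -0.15 and 0.32 on SVZ Sox2-GFP arrays, 0.13, -0.05 and 0.49 on hippocampus Sox2-GFP arrays and 0.06, -0.10 and 0.21 on hippocampus DCX-DsRed arrays, and the 3 groups overlapped. Over all genes the median deviation ran from -0.36, on hippocampus Sox2-GFP C, to 0.14, on hippocampus DCX-DsRed A. The oxidation median minus the synthesis median of an array was -0.15, 0.11 and -0.13 in SVZ Sox2-GFP cells, 0.31, -0.0004 and 0.50 in hippocampus Sox2-GFP cells and -0.57, -0.12 and -0.46 in hippocampus DCX-DsRed cells, with SVZ Sox2-GFP overlapping both others. These are descriptions of 2 lists, with no test of the lists themselves.

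**Figure D2:**
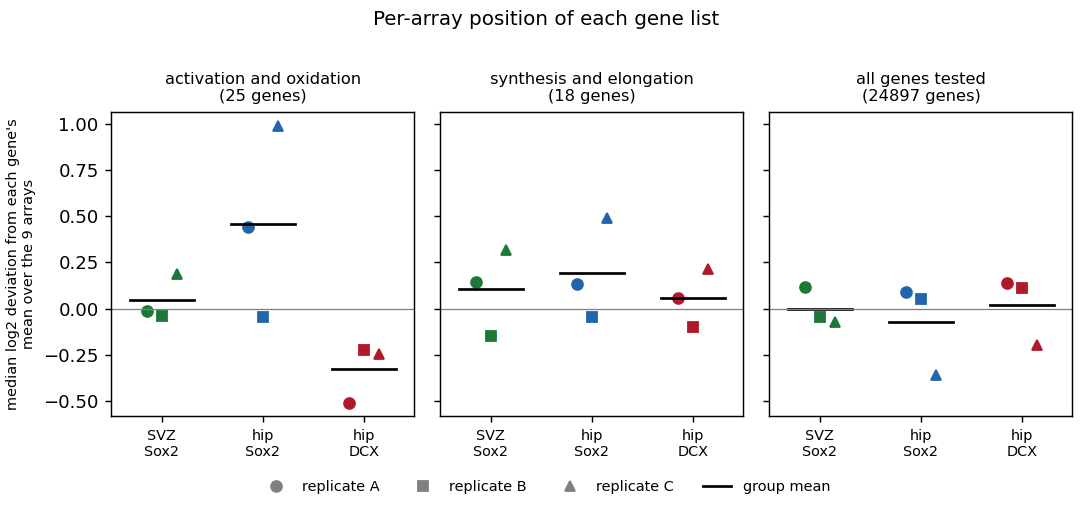
Median log2 deviation of each gene list from its genes' own means over the 9 arrays (points, one per array; marker shape is the replicate letter, the bar is the group mean) for oxidation, synthesis and all genes. By this measure the 3 hippocampus DCX-DsRed arrays lie at -0.22 and below for the oxidation genes, under every Sox2-GFP array, while the synthesis genes overlap in all 3 groups. Mean levels of the oxidation genes, not shown, overlap between SVZ Sox2-GFP and hippocampus DCX-DsRed.

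The medians of SVZ Sox2-GFP minus hippocampus DCX-DsRed were -0.015 for oxidation and -0.16 for synthesis, beside -0.022 for all genes, with 12 of 25 and 9 of 18 positive and 48.7% of all genes. Between SVZ Sox2-GFP and hippocampus Sox2-GFP they were -0.35 and -0.14, beside 0.08, with 9 of 25 and 8 of 18 positive and 54.6% of all genes. Without hippocampus Sox2-GFP replicate C the medians of this last comparison were -0.025 for oxidation and 0.09 for synthesis, and leaving out SVZ Sox2-GFP replicate B turned the sign of the synthesis median as well (0.18), as did leaving out SVZ Sox2-GFP replicate A (0.006).

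Groups that did not overlap were counted as well. Of the 43 genes, 11 lay higher on every hippocampus Sox2-GFP array than on every hippocampus DCX-DsRed array (25.6%, against 11.5% of all genes) and 8 lay lower (18.6%, against 13.2%). The higher ones were 5 synthesis and 6 oxidation genes, and the lower ones 5 and 3. For SVZ Sox2-GFP against hippocampus DCX-DsRed, 12 lay higher (27.9%, against 10.7%), of which 9 were oxidation genes, and 4 lay lower (9.30%, against 10.4%). Between SVZ Sox2-GFP and hippocampus Sox2-GFP, 4 lay higher (9.30%, against 8.85%) and 5 lower (11.6%, against 8.07%), shares near those of all genes.

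Among the genes of cytosolic synthesis no member passed the test in any comparison. Fasn, the fatty acid synthase, had levels of 1.00, 0.94 and 1.30 on SVZ Sox2-GFP arrays A, B and C, 0.50, 0.63 and -0.98 on hippocampus Sox2-GFP arrays and 0.71, 0.98 and 1.35 on hippocampus DCX-DsRed arrays. All hippocampus Sox2-GFP arrays lay below the others, replicate C by far the most, and the difference from hippocampus DCX-DsRed was -0.97 ± 0.47 (adjusted p = 0.347), or -0.45 without replicate C. A second Fasn probe gave 0.02 for that difference, and -2.00 for SVZ Sox2-GFP minus hippocampus DCX-DsRed where the first gave 0.06. Acacb, the acetyl-CoA carboxylase of the mitochondrial surface whose product malonyl-CoA inhibits entry into mitochondria, averaged 0.62 ± 0.71, 1.58 ± 0.40 and -0.38 ± 1.00 in SVZ Sox2-GFP, hippocampus Sox2-GFP and hippocampus DCX-DsRed cells (SD, n = 3 each). Its difference in the hippocampus was 1.96 ± 0.58 (adjusted p = 0.127), with no overlap of these groups. A second Acacb probe, well above background on all 9 arrays, gave 0.86 for that difference, also without overlap. For SVZ Sox2-GFP minus hippocampus DCX-DsRed it gave 0.07 where the first gave 0.99.

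The cytosolic carboxylase Acaca, the citrate lyase Acly, the acetyl-CoA synthetase Acss2 and the NADPH-forming malic enzyme Me1 made up the rest of this group. Their differences ran from -1.53 (Acss2) to 0.69 (Me1) for hippocampus Sox2-GFP, and from -1.64 (Acss2) to 0.01 (Me1) for SVZ Sox2-GFP, both minus hippocampus DCX-DsRed. For these probes both ends of the hippocampal range rested on replicate C: without it Acss2 differed by -0.80 and Me1 by -0.07. A second Me1 probe, well above background on all 9 arrays, gave 1.79 for hippocampus and 1.35 for SVZ Sox2-GFP. By that probe replicate C was the lowest hippocampus Sox2-GFP array (-4.17, against -1.65 and -0.98 on A and B). By its brightest probe Acss2 was lower on all 6 Sox2-GFP arrays than on the 3 hippocampus DCX-DsRed arrays, but with adjusted p of 0.353 and 0.387. Another Acss2 probe gave -0.79 for hippocampus and -1.04 for SVZ Sox2-GFP with overlap, and a further one -1.92 and -1.01 without overlap. Both were well above background on all 9 arrays. A dimmer probe, well above background on 4 arrays, gave 0.51 and 0.72. The 4 Acaca probes and the 2 Acly probes did not share a sign in the hippocampus. Mcat, which loads malonyl groups for the separate synthesis pathway of mitochondria, averaged -0.89 ± 0.29 in hippocampus Sox2-GFP cells and 0.28 ± 0.46 in hippocampus DCX-DsRed cells, a difference of -1.17 ± 0.34 (adjusted p = 0.124) with no overlap.

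Scd2, the stearoyl-CoA desaturase isoform that is prominent in brain, was the one synthesis gene that fell in hippocampus Sox2-GFP cells. Its levels were 2.87, 3.53 and 3.69 on SVZ Sox2-GFP arrays A, B and C, 3.18, 2.85 and 3.09 on hippocampus Sox2-GFP arrays and 4.75, 4.63 and 5.33 on hippocampus DCX-DsRed arrays. Every Sox2-GFP array of either region lay below every hippocampus DCX-DsRed array. The difference was -1.86 ± 0.35 for the hippocampus (adjusted p = 0.0317) and -1.54 ± 0.35 for SVZ Sox2-GFP minus hippocampus DCX-DsRed (adjusted p = 0.0859), and on slide 3 alone these were -2.24 and -1.72. The SVZ difference passed with slide as a fixed block (-1.77, adjusted p = 0.0255), with slide as a random block (-1.68, adjusted p = 0.0188) and with normexp (-1.59, adjusted p = 0.0357). Leaving out any of the 6 hippocampal arrays, or SVZ Sox2-GFP replicate B, ended the hippocampal call: the difference then lay between -2.00 and -1.65, with adjusted p of 0.0507 to 0.0974.

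Scd2 and the 8 myelinating oligodendrocyte genes both averaged highest in hippocampus DCX-DsRed cells. Within each Sox2-GFP group, of 3 arrays, the highest Scd2 level and the highest myelin mean were on different arrays. On SVZ Sox2-GFP C the myelin mean was 0.43 (1.99 and 2.35 on A and B), while Scd2 was 3.69 (2.87 and 3.53). On hippocampus Sox2-GFP C the myelin mean was -4.21 (0.78 and 0.91 on A and B), while Scd2 was 3.09 (3.18 and 2.85). Both were highest on replicate C within hippocampus DCX-DsRed. All 8 myelin genes had lower levels on every hippocampus Sox2-GFP array than on every hippocampus DCX-DsRed array, against 13.2% of all genes. Of the 8, 3 fell by the test (Cnp, Ermn and Mog), against 1.43% of all genes. The same 8 lay lower without overlap for SVZ Sox2-GFP, against 10.4% of all genes. There none passed by limma and 5 had an unadjusted p under 0.05, against 3409 of 24897. The part of the 8 myelin genes in the Scd2 difference was not tested.

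None of the other desaturases passed the test by limma, and 2 of them, Fads1 and Fads3, had an unadjusted p under 0.05 in the hippocampus. Fads1 and Fads2, the delta-5 and delta-6 desaturases of polyunsaturated fatty acids, lay higher on all Sox2-GFP arrays than on all hippocampus DCX-DsRed arrays, with differences of 0.98 and 0.34 for hippocampus Sox2-GFP and 1.16 and 0.40 for SVZ Sox2-GFP (adjusted p between 0.228 and 0.621). Fads3, a family member that acts on sphingoid bases, had levels of -1.33, -1.92 and -2.82 on SVZ Sox2-GFP arrays, -0.07, -1.94 and 0.26 on hippocampus Sox2-GFP arrays and -3.49, -2.36 and -3.68 on hippocampus DCX-DsRed arrays. Both Sox2-GFP groups thus lay higher on average, and only the hippocampal one without overlap.

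The 2 Fads3 probes differed in size. The brighter one gave 2.59 ± 0.68 for hippocampus Sox2-GFP minus hippocampus DCX-DsRed (adjusted p = 0.0902), and the other gave 5.50. That second probe was well above background on all Sox2-GFP arrays but not on hippocampus DCX-DsRed A and B, so its size is set largely against background. With the mean over probes in place of the brightest, Fads3 passed the test in both comparisons with hippocampus DCX-DsRed, at 4.05 (adjusted p = 0.00430) and 3.15 (adjusted p = 0.0191), values set partly against background. Scd1, the other stearoyl-CoA desaturase, ran from -3.63 to 0.66 within the SVZ Sox2-GFP group alone and differed by -0.28 ± 1.18 in the hippocampus, or -1.27 without hippocampus Sox2-GFP C, and by -0.94 ± 1.18 for SVZ Sox2-GFP minus hippocampus DCX-DsRed.

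Elovl2, which elongates polyunsaturated chains towards docosahexaenoic acid, was the elongase that rose in SVZ Sox2-GFP cells. Its levels were -0.30, -0.58 and -0.996 on SVZ Sox2-GFP arrays A, B and C, -1.45, -1.64 and -1.57 on hippocampus Sox2-GFP arrays and -2.14, -2.18 and -2.58 on hippocampus DCX-DsRed arrays. No 2 of the 3 groups overlapped. The difference was 1.68 ± 0.31 for SVZ Sox2-GFP minus hippocampus DCX-DsRed (adjusted p = 0.0422), 0.93 ± 0.31 for SVZ Sox2-GFP minus hippocampus Sox2-GFP (adjusted p = 0.338) and 0.75 ± 0.31 for hippocampus Sox2-GFP minus hippocampus DCX-DsRed (adjusted p = 0.274).

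Within slide 1 the first Elovl2 difference was 1.86 and within slide 3 it was 1.79. It kept its sign in all 21 alternatives and its call in 8. The call was lost on leaving out any one array other than hippocampus Sox2-GFP C (1.51 to 1.86, adjusted p of 0.0816 to 0.135). Astrocyte and radial glia genes also stood higher in SVZ Sox2-GFP cells, with 7 of 8 above hippocampus DCX-DsRed without overlap, against 10.7% of all genes. Their mean levels were 2.37 to 3.54 against 0.48 to 0.89. None passed the test by limma and 3 of the 8 had an unadjusted p under 0.05, against 3409 of 24897. On hippocampus Sox2-GFP arrays A, B and C the mean levels of these genes were 2.33, 2.92 and -2.37. The part of the astrocyte and radial glia genes in the Elovl2 difference was not tested.

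Of the other elongases, Elovl7 showed its smallest p between the Sox2-GFP groups. It had levels of -0.56, -1.23 and -2.90 in SVZ Sox2-GFP cells and 0.50, -0.49 and 1.74 in hippocampus Sox2-GFP cells, a difference of -2.15 ± 0.75 (adjusted p = 0.360), which a second probe gave as -2.05. Elovl1, which makes the very long saturated chains of sphingolipids, differed by -1.01 and -1.19 from hippocampus DCX-DsRed in hippocampus and SVZ Sox2-GFP cells (adjusted p = 0.468 for both), with -1.63 in the hippocampus without replicate C. Elovl4 and Elovl6 varied more within a group than between groups, with SDs up to 1.58 and 1.69.

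Elovl5, an elongase of polyunsaturated chains, shows how far a single array could reach. Its brightest probe gave 1.58 and 2.18 on hippocampus Sox2-GFP arrays A and B but -6.92 on replicate C, where it was not well above background, against 2.41, 2.46 and 2.25 on the hippocampus DCX-DsRed arrays. The difference was -3.42 ± 2.07 with replicate C and -0.49 without it, and the gene's second probe gave -0.20. With slide as a fixed block it was -9.33 (adjusted p = 0.00443), a call that rests on replicate C.

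Genes that work on the products of elongation, listed beside the 43, included genes that fell. Of 9 elongation partners and genes of sphingolipid acylation, 3 fell in hippocampus Sox2-GFP cells, against 1.43% of all genes. They were the fatty acid hydroxylase Fa2h (-4.56 on the log2 scale, adjusted p = 0.00971), the galactosylceramide synthase Ugt8a (-3.44, adjusted p = 0.0350) and Cers2, a ceramide synthase of very long chains (-1.90, adjusted p = 0.0400). Cers2 and Fa2h also fell in SVZ Sox2-GFP cells (-2.73 and -3.41, adjusted p = 0.0177 and 0.0402), against 0.98% of all genes. Fa2h levels were 0.54, 0.43 and 0.04 on SVZ Sox2-GFP arrays, -0.08, 0.01 and -2.37 on hippocampus Sox2-GFP arrays and 3.67, 3.47 and 4.09 on hippocampus DCX-DsRed arrays, so both Sox2-GFP groups lay far below without overlap. These enzymes make the hydroxylated and galactosylated sphingolipids of myelin, and the part of the 8 myelin genes in these falls was not tested. Without hippocampus Sox2-GFP replicate C the Ugt8a difference was -2.93 (adjusted p = 0.0675), while Fa2h and Cers2 kept their calls in the hippocampus at -3.78 and -2.27.

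**Figure D3:**
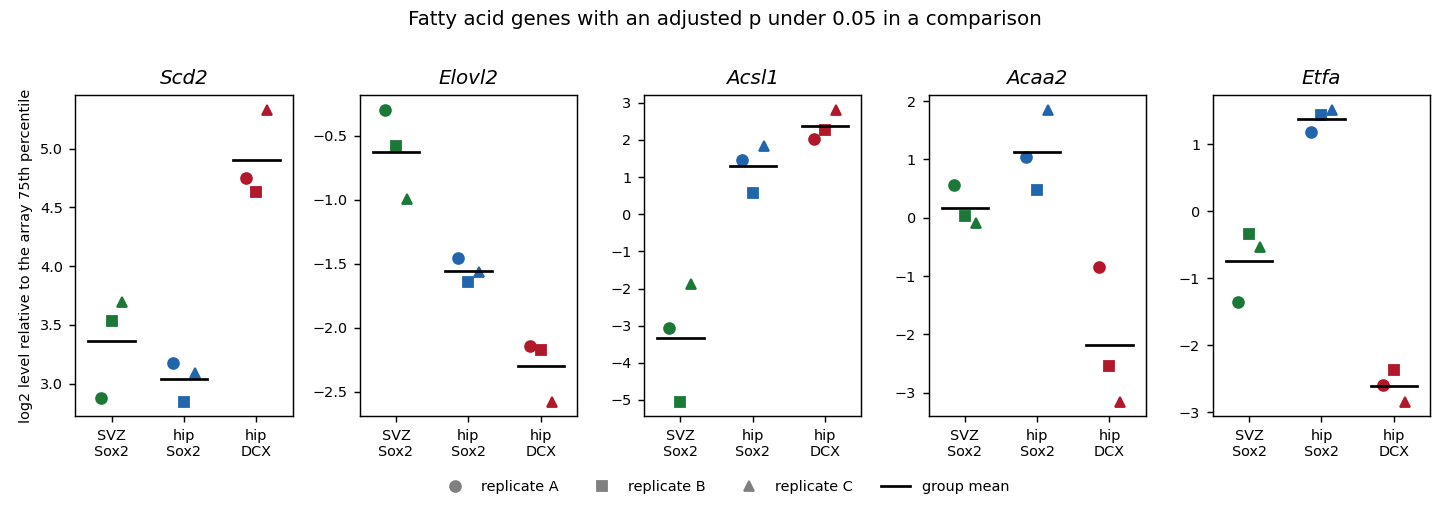
Log2 level relative to the array 75th percentile of the 5 genes with an adjusted p under 0.05 in a comparison, by group (points, one per array; marker shape is the replicate letter, the bar is the group mean; each panel has its own axis). Etfa lies between 1.18 and 1.51 on the hippocampus Sox2-GFP arrays and at -2.37 or below on the hippocampus DCX-DsRed arrays, and Acsl1 lies at -1.88 or below on the SVZ Sox2-GFP arrays.

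Among the long-chain acyl-CoA synthetases, which attach coenzyme A to a fatty acid before it is stored, incorporated or oxidised, Acsl1 fell in SVZ Sox2-GFP cells. Its levels were -3.08, -5.05 and -1.88 on SVZ Sox2-GFP arrays A, B and C, 1.45, 0.56 and 1.85 on hippocampus Sox2-GFP arrays and 2.04, 2.27 and 2.82 on hippocampus DCX-DsRed arrays. The SVZ arrays were low and both hippocampal groups high. The difference was -5.71 ± 0.76 for SVZ Sox2-GFP minus hippocampus DCX-DsRed (adjusted p = 0.0146), -4.62 ± 0.76 for SVZ Sox2-GFP minus hippocampus Sox2-GFP (24.6-fold lower, adjusted p = 0.0571) and -1.09 ± 0.76 between the hippocampal groups (adjusted p = 0.522).

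All 3 Acsl1 probes had the same sign in all 3 comparisons, with -5.71, -2.02 and -5.44 for SVZ Sox2-GFP minus hippocampus DCX-DsRed. Within slide 1 the difference was -5.23 and within slide 3 it was -6.28. The call against hippocampus DCX-DsRed held in 16 of 21 alternatives. It was lost without any of the 3 hippocampus DCX-DsRed arrays, with differences of -5.88 to -5.49 and adjusted p of 0.0560 to 0.0632, and in the fits within 1 slide. The difference between the Sox2-GFP groups passed the threshold in 4 of 20 alternatives, among them the normexp background correction (-3.87, adjusted p = 0.0169) and the fit without SVZ Sox2-GFP replicate C (-5.35, adjusted p = 0.0364).

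The RefSeq promoters (GRCm38.p6, 250 bases before to 50 after the start) of the 43 genes were searched on both strands for motifs linked to lipid genes, and 37 genes had an entry. Mcat, Scd1, Scd2, Fads1, Acaa2 and Decr1 were not among the 37, so their promoters were not searched. The sterol response element, TCACCCCAC or TCACCCGAC, which SREBP factors bind, stood in 0.658% of all 32851 promoters searched and in 1 of the 37, a promoter of Acsl1. The CCAAT box, which NF-Y binds, stood in 20 of 37 genes, against 37.4% of all promoters, the E-box CACGTG in 2 of 37 (Elovl4 and Elovl5), against 7.15%, and a direct repeat of AGGTCA or AGGACA half-sites with 1 base between, the kind of site that PPAR and RXR bind, in none, against 0.103%. Genes with several starts, 5 of the 37, count once if any start has the motif. The shares of all promoters count each start singly, so the 2 kinds of share are not strictly comparable. The Acsl1 promoter on chromosome 8 (chr8:46490716-46491015, plus strand) is shown because it holds the sole sterol element of the 37 genes. Capitals mark that element on the opposite strand, 76 bases before the start, and CCAAT boxes on the opposite strand at 172 and 49 bases before it, and the second Acsl1 start in the table holds none of these motifs.
Acsl1: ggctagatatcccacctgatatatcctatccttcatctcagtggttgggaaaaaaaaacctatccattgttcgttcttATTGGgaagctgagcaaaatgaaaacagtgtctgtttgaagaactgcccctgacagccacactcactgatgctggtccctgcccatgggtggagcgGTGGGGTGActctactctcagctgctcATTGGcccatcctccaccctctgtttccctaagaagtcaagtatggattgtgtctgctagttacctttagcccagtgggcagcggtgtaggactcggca

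The 5 synthetases did not move as a family. Acsl6, a form prominent in brain that favours docosahexaenoic acid, had levels of 2.16, 2.77 and 2.10 on SVZ Sox2-GFP arrays, 2.17, 2.56 and 2.84 on hippocampus Sox2-GFP arrays and -0.75, 0.48 and 1.30 on hippocampus DCX-DsRed arrays. Both Sox2-GFP groups lay above hippocampus DCX-DsRed, opposite to Acsl1, with differences of 2.18 ± 0.53 and 2.00 ± 0.53 in hippocampus and SVZ Sox2-GFP cells (adjusted p = 0.0699 and 0.126). All 3 Acsl6 probes gave positive differences in both, from 1.51 to 4.33, and the hippocampal one passed the test under the normexp correction (2.12, adjusted p = 0.0428) and under quantile normalization (2.26, adjusted p = 0.0488).

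Acsl3, a form of the endoplasmic reticulum and lipid droplets, had levels of 3.36, 4.36 and 4.57 on SVZ Sox2-GFP arrays and 2.70, 2.73 and 3.31 on hippocampus DCX-DsRed arrays, with no overlap and a difference of 1.18 ± 1.18 (adjusted p = 0.75). On hippocampus Sox2-GFP arrays it gave 3.55 and 3.72 for A and B but -1.15 for C, and the hippocampal difference was -0.87 with replicate C and 0.72 without it. Acsl5 was lower on every SVZ Sox2-GFP array, at -2.59, -4.14 and -2.63, than on every hippocampus Sox2-GFP array, at 0.46, 0.13 and -0.66, and the hippocampus DCX-DsRed arrays, at -3.72, -3.08 and 0.73, overlapped with both. Its difference between the Sox2-GFP groups (SVZ minus hippocampus) was -3.09 ± 1.09 (adjusted p = 0.366). Acsl4, the form that prefers arachidonic acid, gave its largest difference, -1.08, for SVZ Sox2-GFP minus hippocampus Sox2-GFP, or -0.25 without replicate C.

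**Figure D4:**
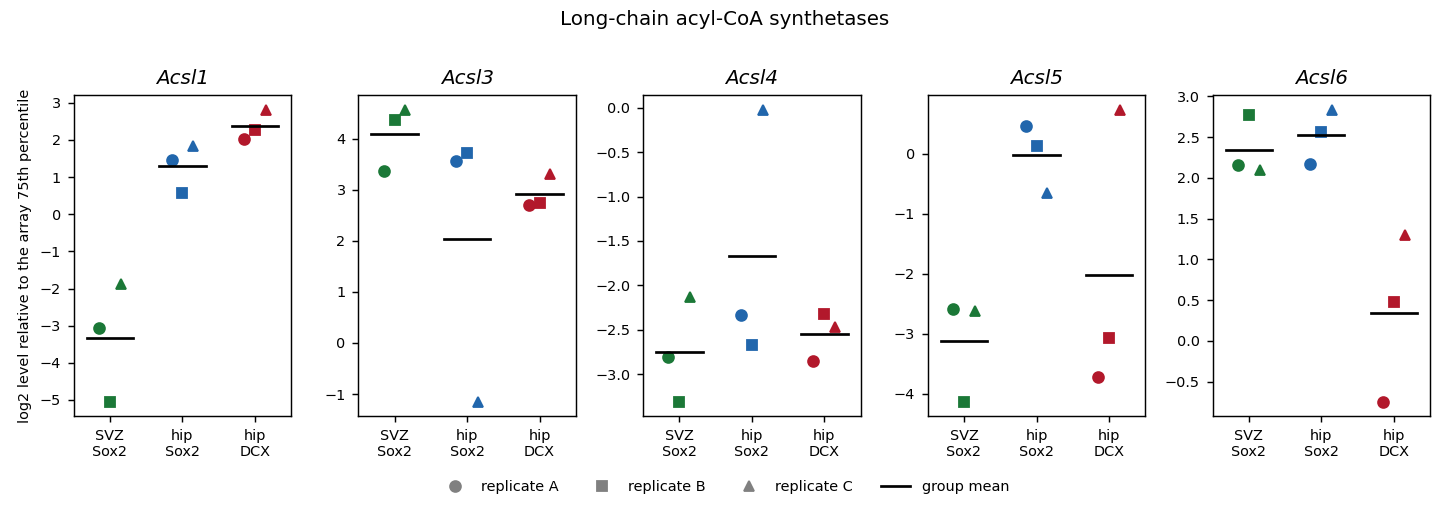
Log2 level relative to the array 75th percentile of the 5 long-chain acyl-CoA synthetases by group (points, one per array; marker shape is the replicate letter, the bar is the group mean; each panel has its own axis). Acsl1 is low on the SVZ Sox2-GFP arrays, Acsl5 is low there and on hippocampus DCX-DsRed A and B, Acsl6 is low on the hippocampus DCX-DsRed arrays, and Acsl3 has 1 low array, hippocampus Sox2-GFP C at -1.15.

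The carnitine shuttle had 2 genes with higher levels on all Sox2-GFP arrays of both regions than on all hippocampus DCX-DsRed arrays, and neither passed the test. Cpt1a, the outer membrane carnitine palmitoyltransferase that controls entry of long chains into mitochondria, had levels of 1.40, 0.65 and 2.37 on SVZ Sox2-GFP arrays, 1.66, 1.29 and 2.51 on hippocampus Sox2-GFP arrays and -0.06, -0.48 and 0.16 on hippocampus DCX-DsRed arrays. The differences were 1.95 ± 0.52 in the hippocampus (adjusted p = 0.0936) and 1.60 ± 0.52 for SVZ Sox2-GFP (adjusted p = 0.208). A second Cpt1a probe gave 3.60 and 2.73, and with the mean over probes the hippocampal difference was 2.77 (adjusted p = 0.0396).

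Slc25a20, the carrier that exchanges acylcarnitine for carnitine across the inner membrane, had levels of -1.55, -0.37 and 0.96 on SVZ Sox2-GFP arrays, 0.43, -1.69 and -1.13 on hippocampus Sox2-GFP arrays and -2.70, -2.95 and -3.67 on hippocampus DCX-DsRed arrays. The hippocampus DCX-DsRed arrays were the lowest 3 of the 9. Its differences were 2.31 ± 0.74 for the hippocampus (adjusted p = 0.157) and 2.79 ± 0.74 for SVZ Sox2-GFP (adjusted p = 0.132). Cpt1c, the neuronal form, and Cpt2, the inner membrane transferase, differed by between -0.40 and 0.16 in those 2 comparisons, and by -0.28 and -0.53 in the hippocampus without replicate C. A second Cpt1c probe had the opposite sign to the first in both, at -0.31 for the hippocampus and 0.57 for SVZ Sox2-GFP.

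Of the 11 genes of the beta-oxidation enzymes, Acaa2 rose in hippocampus Sox2-GFP cells. Acaa2 is the mitochondrial thiolase that cleaves acetyl-CoA from the chain in the last step of a cycle. Its levels were 0.56, 0.03 and -0.10 on SVZ Sox2-GFP arrays A, B and C, 1.04, 0.47 and 1.85 on hippocampus Sox2-GFP arrays and -0.85, -2.53 and -3.16 on hippocampus DCX-DsRed arrays. All 6 Sox2-GFP arrays lay above all 3 hippocampus DCX-DsRed arrays. The difference was 3.30 ± 0.63 for the hippocampus (adjusted p = 0.0325) and 2.34 ± 0.63, 5.08-fold, for SVZ Sox2-GFP (adjusted p = 0.132).

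Within slide 3 the hippocampal Acaa2 difference was 5.01 and with slide as a fixed block it was 4.72 (adjusted p = 0.0253), against 2.94 without hippocampus Sox2-GFP replicate C (adjusted p = 0.0688). The call held in 11 of 20 alternatives and the positive sign in all of them. Of the 6 hippocampal arrays, leaving out hippocampus DCX-DsRed replicate A alone kept the call (3.97, adjusted p = 0.0247), and leaving out any of the other 5 gave 2.81 to 3.63 with adjusted p of 0.0560 to 0.114, while leaving out SVZ Sox2-GFP replicate B gave an adjusted p of 0.0528.

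The trifunctional protein, which carries out the last 3 steps of a cycle on long chains, showed smaller differences of the same sign. Hadha, its alpha subunit, had levels of -0.97, -0.73 and 0.41 on SVZ Sox2-GFP arrays, -0.20, -1.07 and 0.32 on hippocampus Sox2-GFP arrays and -1.06, -1.66 and -2.19 on hippocampus DCX-DsRed arrays. The differences were 1.32 ± 0.53 and 1.21 ± 0.53 in hippocampus and SVZ Sox2-GFP cells (adjusted p = 0.259 and 0.372), but 2 dimmer Hadha probes, above background on 4 and 2 arrays, had the opposite sign in both. Hadhb, the beta subunit, differed by 1.20 ± 0.49 in the hippocampus without overlap (adjusted p = 0.262), or 0.77 without replicate C.

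Among the other beta-oxidation genes the smallest adjusted p by limma was 0.452, for Eci1 in SVZ Sox2-GFP minus hippocampus DCX-DsRed (1.61 ± 0.83). The acyl-CoA dehydrogenases of long to short chains, Acadvl, Acadl, Acadm and Acads, had hippocampal differences between -0.31 and 1.14, or between -0.57 and 1.11 without replicate C, and the peroxisomal thiolase Acaa1a one of -0.53. Eci1, an isomerase for unsaturated chains, gave 0.46 and 1.46 on hippocampus Sox2-GFP arrays A and B and -2.14 on C, against -0.40, -0.27 and -1.16 on hippocampus DCX-DsRed arrays, so its difference was 0.53 with replicate C and 1.57 without it. The hydratase Echs1 and the reductase Decr1 were near background on several arrays, with SDs within a group of up to 3.01 and 3.20.

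Etfa was the gene of the 43 with the smallest p in the hippocampal comparison. It encodes the alpha subunit of the electron transfer flavoprotein, which takes electrons from the acyl-CoA dehydrogenases. Its levels were -1.35, -0.35 and -0.53 on SVZ Sox2-GFP arrays A, B and C, 1.18, 1.43 and 1.51 on hippocampus Sox2-GFP arrays and -2.60, -2.37 and -2.84 on hippocampus DCX-DsRed arrays. No 2 of the 3 groups overlapped, with hippocampus Sox2-GFP highest, SVZ Sox2-GFP between and hippocampus DCX-DsRed lowest. The means were -0.74 ± 0.53, 1.37 ± 0.18 and -2.60 ± 0.24 in that order of SVZ Sox2-GFP, hippocampus Sox2-GFP and hippocampus DCX-DsRed (SD, n = 3 each).

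The Etfa difference was 3.98 ± 0.35 for hippocampus Sox2-GFP minus hippocampus DCX-DsRed (adjusted p = 0.00228). It was 1.86 ± 0.35 for SVZ Sox2-GFP minus hippocampus DCX-DsRed (adjusted p = 0.0476). Between the Sox2-GFP groups (SVZ minus hippocampus) it was -2.12 ± 0.35, 4.34-fold lower, with an adjusted p of 0.0607, and it passed the threshold in 4 of 20 alternatives (normexp, quantile normalization, mean over probes and slide as a fixed block, the lowest adjusted p being 0.0292 with normexp). The hippocampal call held in 19 of 20 alternatives, with differences from 3.51 to 4.36, and was lost within slide 3 (4.36, adjusted p = 0.206), where the group is 1 array against 1. Leaving out hippocampus Sox2-GFP replicate C gave 3.91 (adjusted p = 0.00626). The SVZ Sox2-GFP call held in 8 of 21 alternatives; the difference was 1.13 within slide 1 and 2.40 within slide 3, and leaving out any one array other than SVZ Sox2-GFP A or hippocampus Sox2-GFP C ended it (1.66 to 1.98, adjusted p of 0.0871 to 0.155).

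Markers of the choroid plexus and the ependyma, like Etfa and Acaa2, averaged higher in hippocampus Sox2-GFP than in hippocampus DCX-DsRed cells. All 7 choroid plexus genes averaged higher and 5 rose, and of 5 ependymal genes tested all averaged higher and 4 rose. Of all genes tested 46.4% averaged higher and 1.76% rose. Mean levels of the ependymal genes were -0.46 to 1.47 on hippocampus Sox2-GFP arrays and -5.24 to -3.86 on hippocampus DCX-DsRed arrays, where 3 to 4 of the 5 were well above background. In SVZ Sox2-GFP minus hippocampus DCX-DsRed, where Etfa also rose, none of either list passed by limma. There 2 genes of each list had an unadjusted p under 0.05, against 3409 of all 24897. All 5 ependymal genes and 3 of the 7 choroid plexus genes averaged higher in that comparison, against 48.7% of all genes. Mean levels of the ependymal genes on SVZ Sox2-GFP arrays were -2.90 to -1.25, between those of the other groups. The part of these markers in the Etfa and Acaa2 differences was not tested.

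The partners of Etfa did not pass the test in any comparison by limma, and neither had an unadjusted p under 0.05. Etfb, the beta subunit of the same dimer, averaged 2.61 ± 0.06, 2.65 ± 0.15 and 2.41 ± 0.28 in SVZ Sox2-GFP, hippocampus Sox2-GFP and hippocampus DCX-DsRed cells, with a hippocampal difference of 0.23 ± 0.29 (adjusted p = 0.732). Etfdh, which hands the electrons to ubiquinone, averaged -1.20 ± 1.48, -0.11 ± 0.92 and -1.17 ± 1.55 in the same order, a hippocampal difference of 1.06 ± 0.97 (adjusted p = 0.634) that was positive in 20 of 20 alternatives. Whether either differs from Etfa was not tested.

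The Etfa promoter on chromosome 9 (chr9:55512194-55512493, minus strand) is shown because Etfa changed in both comparisons with hippocampus DCX-DsRed. It holds a pair of CCAAT boxes, in capitals, one on the opposite strand 28 bases before the start and one on its own strand 11 bases before it, and none of the other motifs searched.
Etfa: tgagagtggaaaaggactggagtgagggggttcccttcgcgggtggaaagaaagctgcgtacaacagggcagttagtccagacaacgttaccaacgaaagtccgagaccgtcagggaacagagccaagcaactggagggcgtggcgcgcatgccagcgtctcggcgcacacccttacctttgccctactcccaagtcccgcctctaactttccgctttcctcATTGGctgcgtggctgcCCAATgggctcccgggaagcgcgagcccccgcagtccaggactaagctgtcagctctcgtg

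The PPAR receptors, nuclear receptors that switch on oxidation genes when fatty acids bind, did not pass the test in any comparison by limma, and neither had an unadjusted p under 0.05. Ppara had levels of 0.49, -0.28 and -0.56 on SVZ Sox2-GFP arrays, -0.52, -0.68 and -0.97 on hippocampus Sox2-GFP arrays and 1.00, 0.57 and -0.59 on hippocampus DCX-DsRed arrays, and the groups overlapped. Its hippocampal difference was -1.05 ± 0.48 (adjusted p = 0.322). Ppard differed by -0.36 ± 0.37 in the hippocampus and by -0.76 ± 0.37 for SVZ Sox2-GFP minus hippocampus DCX-DsRed (adjusted p = 0.676 and 0.420), with every Sox2-GFP array below every hippocampus DCX-DsRed array.

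Regulators outside the 43 gave 1 call, in the hippocampus, where 1.76% of all genes rose. Of 7 oxidation regulators, Esrra, a nuclear receptor that drives mitochondrial genes, rose in hippocampus Sox2-GFP cells, with levels of 1.31, 1.74 and 2.32, against 0.02, -0.46 and -1.88 in hippocampus DCX-DsRed cells (2.57 ± 0.52, adjusted p = 0.0399). The groups did not overlap, and without hippocampus Sox2-GFP replicate C the difference was 2.30 (adjusted p = 0.0844). In SVZ Sox2-GFP cells Esrra differed by 2.28 ± 0.52 from hippocampus DCX-DsRed (adjusted p = 0.0853). Ppargc1a, its coactivator, averaged 0.48 ± 0.11, -0.28 ± 0.33 and -0.20 ± 0.22 in SVZ Sox2-GFP, hippocampus Sox2-GFP and hippocampus DCX-DsRed cells, with a difference of 0.76 ± 0.30 between the Sox2-GFP groups (adjusted p = 0.429).

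None of 11 lipogenic regulators passed the test in any comparison by limma, with 0, 3 and 0 at an unadjusted p under 0.05 in the hippocampal, the SVZ against hippocampus DCX-DsRed and the Sox2-GFP comparison. Of all 24897 genes 4211, 3409 and 2688 had such a p. Srebf1, the factor that drives the fatty acid synthesis genes, averaged 0.44 ± 0.97, 0.22 ± 0.09 and 0.03 ± 0.26 in SVZ Sox2-GFP, hippocampus Sox2-GFP and hippocampus DCX-DsRed cells, and its largest difference was 0.41. The citrate carrier Slc25a1 had the smallest p of that list, -1.39 ± 0.51 for SVZ Sox2-GFP minus hippocampus DCX-DsRed (adjusted p = 0.265).

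Further genes of oxidation and storage gave 1 more call. Of 12 further mitochondrial and ketone genes, Bdh1, the dehydrogenase that interconverts ketone bodies, rose 7.03-fold in hippocampus Sox2-GFP cells, with levels of -0.62, -0.16 and -0.10, against -2.45, -2.25 and -4.61 in hippocampus DCX-DsRed cells (adjusted p = 0.0472, or 0.0967 without hippocampus Sox2-GFP replicate C). No gene of 11 peroxisomal ones passed by limma in any comparison, with 2, 1 and 2 at an unadjusted p under 0.05, and the smallest p belonged to the peroxisomal transporter Abcd3 (3.12 ± 0.82 in the hippocampus, adjusted p = 0.0911). Nor did any of 15 genes of fatty acid binding, uptake and storage, with 3, 5 and 2 at an unadjusted p under 0.05. The same counts over all 24897 genes were 4211, 3409 and 2688. Gpam, which starts glycerolipid synthesis, had the smallest p of the 15, with 2.11 ± 0.49 for SVZ Sox2-GFP minus hippocampus Sox2-GFP (adjusted p = 0.160).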

How the data were processed

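RNA of 9 samples was measured on Agilent arrays with 1 colour (Cy3). Groups and replicate letters came from the sample titles. The deposited files are scanner output of Agilent Feature Extraction, per the file headers. In them the processed signal is an intensity from which the software subtracted a fitted spatial background, corrected a spatial trend and replaced values under the noise, without scaling across arrays. Raw mean and background intensity and other columns, flags of 0 or 1 for each spot (well above background, saturated, outlier), were deposited too. Limma is the tool that the submitters' processing notes list. Signals of hippocampus DCX-DsRed A are rounded in its file, which looks re-saved by a spreadsheet, so probe names came from the other files. The share of probes well above background ran from 80.5% to 88.4% and no spot was saturated. The number of arrays limits the precision.

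Control and outlier spots were left out and spots of a probe averaged (40710 probes). A level is the log2 of the deposited processed signal less the 75th percentile of that array. Names were updated through RefSeq (GRCm38.p6, for names and promoters only): 40 of the 43 genes matched by the files' own name and 3 (Me1, Mcat and Eci1) through that table. Probes well above background on at least 3 arrays were kept and the brightest stood for its gene. Differences came from limma 3.58.1 (lmFit, eBayes) in R 4.3.3, fitted to the 9 arrays together (6 residual degrees of freedom) and tested on simulated data first. Members, role groups and lists were chosen with earlier results of these data known. Genes named with values are every called member, the 2 with the smallest p in each role group, called genes of the other lists or else the smallest p, Srebf1 and Ppargc1a, and others chosen after their values were seen (Fads1, Fads2, Scd1, Elovl1, Elovl5, Acsl3, Acsl4, Acsl5, Acss2, Me1, Cpt1c, Hadhb, Acaa1a, Eci1 and Etfb). Other members are named with the ends of a range. Alternatives were another background correction, other normalizations, filters and probe rules, slide blocks, single slides, a replicate block, only the groups compared, and each array left out.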

Additional observations from a re-analysis of the deposited data

How the results depend on the processing

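All called differences of the 43 genes kept their sign in every alternative. Each was between groups without overlap, so leaving out an array or fitting a single slide could not turn the sign. Scd2, Elovl2, Acaa2 and Etfa have a single probe each, so the probe rules and filters left their differences unchanged. The number of genes called of the 43 was more sensitive. For hippocampus Sox2-GFP minus hippocampus DCX-DsRed it was 3, but 5 with normexp background correction and with the mean over probes, 7 with slide as a fixed block, 0 on slide 3 only (with 0 of all genes), 1 with only the 2 groups compared, and 1 to 3 with each array left out in turn. For SVZ Sox2-GFP minus hippocampus DCX-DsRed it was 3, but 1 with no filter, 0 on slide 3 only and on slide 1 only, 1 with only the 2 groups compared, 1 with the replicate block and 0 to 3 with an array left out. For SVZ Sox2-GFP minus hippocampus Sox2-GFP it was 0, but 2 with normexp, with quantile normalization and with the mean over probes, 7 with slide as a fixed block and 0 to 1 with an array left out. In the fits of a single slide a group holds as little as 1 array, so few degrees of freedom remain.

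List medians moved too. The synthesis median of hippocampus Sox2-GFP minus hippocampus DCX-DsRed was -0.06, but 0.41 with slide as a fixed block, 0.21 with slide as a random block and 0.37 on slide 3 only, and -0.12 to 0.19 with an array left out. Its oxidation median ranged from 0.25 to 0.77 with an array left out. For SVZ Sox2-GFP minus hippocampus DCX-DsRed the oxidation median was 0.52 on slide 1 only and ranged from -0.14 to 0.56, and the synthesis median from -0.34 to 0.14, with an array left out. For SVZ Sox2-GFP minus hippocampus Sox2-GFP these ranges were -0.54 to -0.025 for oxidation and -0.33 to 0.18 for synthesis. The cause of these shifts was not tested.

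Over all genes the number called was 793, 379 and 100 in the 3 comparisons. It was 2032, 795 and 2151 with slide as a fixed block, 852, 837 and 150 with slide as a random block, 485, 186 and 13 with the replicate block, 1118, 550 and 162 with normexp, 1001, 459 and 173 with the mean over probes, and 692, 332 and 54 over probes well above background on all arrays. With only the 2 groups compared it was 574, 479 and 8. Leaving out an array gave 248 to 783, 49 to 852 and 35 to 102. No label states whether the letters pair the samples. Deviations of same-lettered arrays from their group means correlated at -0.04 to 0.12. Some of these arrays shared a slide, and low values cannot show that the samples were unpaired. With the replicate block 2 of the 43 were called in the hippocampus, Etfa and Cpt1a.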
